A study of Mus musculus with 4 samples.

Results

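The interferon response and antigen presentation genes of 4 mouse neural stem cell lines are described here as a list of 45 genes chosen by name. The list holds 4 interferon receptor subunits, 7 transcription factors, 7 sensors with their helpers, 18 induced effectors and regulators, and 9 genes of antigen presentation. Of the 17419 genes listed in at least 1 of the 4 normalized tables, 44 were members, and Oas1a was the member listed in none. Expression was listed for 44 members in XN4, 37 in XN1, 40 in CN4 and 31 in KN1, and 29 members were listed in all 4 lines. Of the 17419 genes, 15826 were listed in XN4, 14033 in XN1, 14704 in CN4 and 14672 in KN1. The rarest listed gene was captured in 5 XN4, 4 XN1, 3 CN4 and 7 KN1 cells, so a gene not listed is not shown to be absent.

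Interferons are secreted proteins that bind receptors present on nearly all nucleated cells. The receptors activate Janus kinases, which phosphorylate STAT proteins, and a complex that holds STAT2 and IRF9 binds a DNA element in the promoters of interferon-stimulated genes, whose products sense or restrict viruses. Interferons also raise the class I antigen presentation machinery, in which immunoproteasome subunits cut peptides, the TAP transporter carries them into the endoplasmic reticulum, and class I heavy chains paired with beta-2 microglobulin show them at the cell surface. Neural stem and progenitor cells are known for low class I levels at rest.

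The lines were derived from 129/Sv epiblast stem cells, the pluripotent cells of the post-implantation epiblast, and differed in how Wnt signaling was set in culture. XN4 and XN1 were kept with 10 µM XAV939, a tankyrase inhibitor that antagonizes Wnt signaling, KN1 with no Wnt reagent, and CN4 with 2 µM CHIR99021, a GSK3 inhibitor that activates the pathway. EGF and FGF2 were present at 10 ng/ml each in all 4 media, and no interferon is named among the additions. XAV939 came from different suppliers for XN4 and XN1, and that used for XN1 formed crystals in the medium, so these lines are not replicates of one treatment.

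Each line gave 1 BD Rhapsody library, so differences between lines cannot be told apart from differences between libraries and no test between lines was possible. Levels below are reads of a gene per 10000 reads of the line, with ribosomal protein and mitochondrial genes left out. Intervals are 95%, take each read as an independent count and cover no error but that of counting. The counts are of reads and not of molecules, so the intervals can be too narrow even for counting error. The normalized tables held 3448 to 3975 cells a line and 19271688 to 41539513 reads. KN1 stood apart in complexity, with a median of 833 genes a cell against 2257 to 2824 in the other lines, and its listed members had a median of 4.50 reads in each cell that captured them, against 1.32 in XN1, 1.43 in CN4 and 2.75 in XN4. XN4 stood apart in its markers: Sox2 was captured in 0.560% of XN4 cells against 13.9% to 83.9% elsewhere, Fabp7 had no read in all 8741 XN4 cells, which allows up to 0.0343% of cells with a read (a count of 3) and sets no limit on cells that express it below capture, and of 6 fibroblast-associated genes, Col3a1, Dcn, Pdgfra, Lum and Col1a1 were captured in 97.8%, 87.2%, 54.3%, 28.3% and 23.4% of XN4 cells. The sixth, Col1a2, was captured in 7.003% of XN4 and 22.9% of XN1 cells. Of the 8 neural progenitor markers, 5 were listed in XN4, with Vim at 84.4%, Sox9 at 45.05%, Hes1 at 24.3% and Nes at 8.48% of cells beside Sox2. Hes5 had 0 reads in all XN4 cells, and was captured in 3.41% of XN1, 7.80% of KN1 and 24.2% of CN4 cells. Sox1 did not set XN4 apart, with 6 reads in all XN4 cells and 4 in all 14452 XN1 cells. It was captured in 0.377% of KN1 and 26.3% of CN4 cells. The neural label was thus not borne out by the defining marker Sox2 in the XN4 library. The part of these differences in the results below was not tested. Pairs of libraries shared 14 to 21 cell indices in the normalized tables, and 139 to 320 in the tables of all reads of XN4, XN1 and CN4.

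Members were highest in XN4 far more often than in the other lines. Among the 29 members listed in all 4 lines, 24 had their highest level in XN4, 3 in XN1, 0 in CN4 and 2 in KN1. Over all genes listed in the 4 lines, 25.9% were highest in XN4, 18.0% in XN1, 21.9% in CN4 and 34.3% in KN1, so KN1 held the most highest levels of all genes. In XN4, 13 members were at least 2-fold above the next line, where 5.64% of 12385 genes were. In XN1 this held for Trim25 alone, against 2.13% of all genes, and for no member in KN1 or CN4, against 12.1% and 1.11% of all genes. Of the 13 in XN4, Ifnar2, Irf1, Stat2, Eif2ak2, H2-D1 and Tapbp stood less than 3-fold above the next line. KN1 had the lowest level of 19 of the 29 members, and of 34.9% of all genes.

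**Figure D1:**
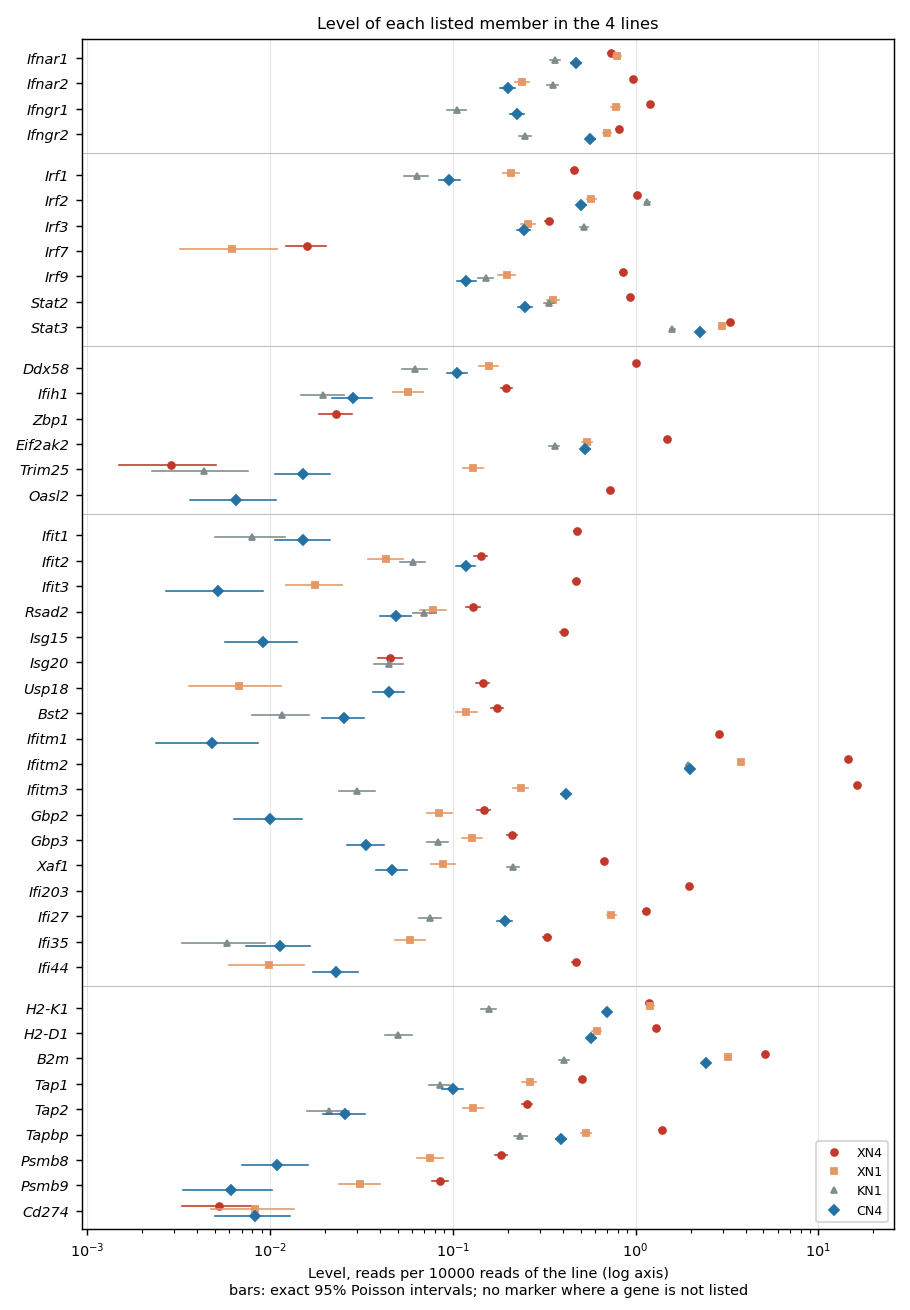
Level of each listed member (rows, grouped as receptors, transcription factors, sensors, effectors and antigen presentation) in XN4, XN1, KN1 and CN4, as reads per 10000 reads of the line on a log axis, with exact Poisson 95% intervals. XN4 lies to the right for most rows, with Ifitm1 more than 100-fold above CN4, while Trim25 lies to the right in XN1 and Irf2 and Irf3 in KN1.

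The contrast was present between the lines that both received XAV939. XN4 was at least 2-fold above XN1 for 20 of 37 members, a share of 54.1% against 16.8% of all genes, and XN1 was above XN4 for 1 member, Trim25, against 14% of all genes. The median log2 difference, XN4 over XN1, was 1.14 over the members and 0.10 over all 13285 genes compared. The median of the members thus stood well above that of all genes. By some margin, 33 of the 37 were higher in XN4, a count with no share of all genes beside it.

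The receptors were captured in every line. Ifnar1 and Ifnar2 form the type I interferon receptor, and Ifngr1 and Ifngr2 the receptor for interferon gamma. Ifnar2 stood at 0.972 reads per 10000 in XN4, 0.240 in XN1, 0.1996 in CN4 and 0.352 in KN1, at least 2.76-fold above each other line. Ifnar1 did not follow it, with 0.733 in XN4, 0.789 in XN1, 0.472 in CN4 and 0.364 in KN1. The partner chains of one receptor therefore had different orders across the lines.

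Ifngr1, the ligand-binding chain of its receptor, was at 1.196 reads per 10000 in XN4, 0.777 in XN1, 0.225 in CN4 and 0.105 in KN1. Both XAV939 lines were above the other lines, XN1 being 3.45-fold above CN4 (interval 3.12 to 3.82). Ifngr2 varied less, from 0.248 in KN1 to 0.808 in XN4, with 0.699 in XN1 and 0.566 in CN4.

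The transcription factors did not share one order across the lines. Irf9 and Stat2, the DNA-binding and transactivating partners in the complex formed after type I signaling, were both high in XN4. Irf9 had 0.852 reads per 10000 in XN4, 0.197 in XN1, 0.119 in CN4 and 0.152 in KN1, which put XN4 4.32-fold above XN1 (3.88 to 4.81). Stat2 had 0.933 in XN4, 0.352 in XN1, 0.248 in CN4 and 0.337 in KN1. Irf1, itself an interferon-induced activator, was at 0.462 in XN4, 0.209 in XN1, 0.0959 in CN4 and 0.0635 in KN1. These 3 genes shared XN4 as the highest line by more than 2-fold.

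Irf2, which competes with Irf1 for its sites, and Irf3, the latent factor that acts directly after virus sensing, were highest in KN1. Irf2 had 1.02 reads per 10000 in XN4, 0.573 in XN1, 0.505 in CN4 and 1.16 in KN1, and Irf3 had 0.337, 0.258, 0.244 and 0.525 in the same order. Stat3, which serves many cytokines, was the least variable of the listed factors, at 3.27 in XN4, 2.98 in XN1, 2.24 in CN4 and 1.59 in KN1. Irf7, the factor that amplifies type I interferon production, was near the floor, with 66 reads in XN4, 12 in XN1 and no listing in KN1 or CN4.

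Among the sensors, Ddx58, which encodes the RNA helicase RIG-I, had 1.01 reads per 10000 in XN4, 0.157 in XN1, 0.105 in CN4 and 0.0620 in KN1. Ifih1, which encodes the related helicase MDA5, had 0.196 in XN4, 0.0571 in XN1, 0.0283 in CN4 and 0.0196 in KN1. Eif2ak2, the RNA-activated kinase PKR that halts translation, had 1.49, 0.543, 0.532 and 0.360. XN4 was the highest line for all 3, by 6.40-fold (5.70 to 7.22), 3.44-fold (2.81 to 4.23) and 2.74-fold (2.56 to 2.93) over XN1.

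Oasl2, an oligoadenylate synthetase-like gene, was close to an on and off contrast. It had 0.726 reads per 10000 and was captured in 24.1% of cells in XN4, against 0.00654 and 0.261% of cells in CN4, with no listing in XN1 or KN1. Over all cells before the normalization, XN1 had 47 Oasl2 reads and XN4 7227, which was 114-fold higher per read (85.7 to 155). Against CN4 the Oasl2 fold was 111 (67.2 to 199) in the normalized tables. Over all cells, with 136 CN4 reads, it was 75.7 (63.9 to 90.3). Zbp1, a sensor of Z-form nucleic acids, was rare in XN4 at 1.15% of cells and had 4 reads in all 14452 XN1 cells.

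Trim25, the ubiquitin ligase that helps activate RIG-I, ran the other way from its partner. It had 0.00289 reads per 10000 in XN4 (12 reads), 0.1297 in XN1 (250 reads), 0.0153 in CN4 (35 reads) and 0.00435 in KN1 (12 reads). XN1 was 44.9-fold above XN4 (25.3 to 88.1) and 8.51-fold above CN4 (5.96 to 12.5). Its share of cells, 5.48% in XN1, was under 1% in each of the other lines.

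The interferon-induced transmembrane proteins, which block virus entry at membranes, were all highest in XN4, Ifitm1 and Ifitm3 by a wide margin and Ifitm2 by less. Ifitm3 had 16.2 reads per 10000 in XN4 (16.1 to 16.4), 0.235 in XN1 (0.214 to 0.258), 0.416 in CN4 (0.390 to 0.443) and 0.0301 in KN1 (0.0240 to 0.0373). It was captured in 94.0% of XN4 cells, 7.76% of XN1 cells, 0.579% of KN1 cells and 13.8% of CN4 cells. XN4 was 69.1-fold above XN1 (63.0 to 76.0) and 39.1-fold above CN4 (36.6 to 41.7).

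Ifitm1 had 2.88 reads per 10000 in XN4, with capture in 53.4% of cells, and 0.00479 in CN4, with no listing in XN1 or KN1. All 14452 XN1 cells together held 9 Ifitm1 reads against 28328 in the 8741 XN4 cells. Ifitm2, whose product shares much of its sequence with that of Ifitm3, was captured in every line, at 14.5 in XN4, 3.76 in XN1, 2.00 in CN4 and 1.93 in KN1. The 3 genes are neighbours on chromosome 7 (GRCm38, Ifitm2 from 140954837, Ifitm1 from 140967221 and Ifitm3 to 141010770), and reads that fit more than one of them could have been divided between them.

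Ifi203, a member of the PYHIN family of DNA-binding proteins, was listed in XN4 alone, at 1.97 reads per 10000 and in 49.9% of cells. In the tables of all reads it had 28 reads in XN1 and 30 in CN4 against 19307 in XN4. The annotation places the related gene Mndal over part of Ifi203 on the same strand, so its reads are uncertain as to gene.

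The tetratricopeptide repeat genes Ifit1 and Ifit3, whose products bind viral RNA, were scarce outside XN4. Ifit1 had 0.480 reads per 10000 in XN4, 0.0153 in CN4 and 0.00798 in KN1, and was not listed in XN1. Ifit3 had 0.474 in XN4, 0.0176 in XN1 and 0.00523 in CN4, and was not listed in KN1. The CN4 level of Ifit3 rested on 12 reads. In the tables of all reads, with 200 in CN4, XN4 was 32.2-fold above CN4 (27.9 to 37.2), where the normalized tables gave 90.7-fold (51.8 to 176). Isg15, a ubiquitin-like modifier, had 0.406 in XN4 and 0.00915 in CN4 and was not listed in XN1 or KN1. Capture in XN4 was 12.3% of cells for Ifit1, 16.9% for Ifit3 and 15.02% for Isg15, and in each other line it was under 1% wherever the gene was listed.

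Ifit2, of the same gene cluster, differed from its neighbours. It had 0.143 reads per 10000 in XN4, 0.0431 in XN1, 0.118 in CN4 and 0.0606 in KN1, so that XN4 was 1.21-fold above CN4 (1.05 to 1.40) where Ifit1 was 31.4-fold above it (22.5 to 45.3). Of the 35 Ifit1 reads in CN4, 26 lay in 3 cells, and over the tables of all reads the Ifit1 fold was 18.3 (16.4 to 20.4). Against XN1 and KN1, Ifit2 was 3.31-fold (2.63 to 4.22) and 2.35-fold (1.98 to 2.81) higher in XN4. Rsad2, which encodes viperin, ranged from 0.0488 in CN4 to 0.129 in XN4, a fold of 2.64 (2.15 to 3.26).

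Ifi44, an interferon-induced gene of unsettled function, had 0.472 reads per 10000 in XN4, 0.00986 in XN1 and 0.0231 in CN4 and was not listed in KN1. Xaf1, which promotes apoptosis, had 0.673 in XN4, 0.0887 in XN1, 0.0466 in CN4 and 0.214 in KN1. Ifi35 had 0.328, 0.0586, 0.0113 and 0.00580 in the same order. All 3 were highest in XN4, whichever of the listed lines was set against it, by at least 3.15-fold.

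Ifi27, a small interferon-inducible protein, was shared by the XAV939 lines. It had 1.13 reads per 10000 in XN4, 0.738 in XN1, 0.193 in CN4 and 0.0755 in KN1. Of the remaining effectors, Usp18, the protease that removes Isg15 and dampens the receptor, was captured in 7.21% of XN4 cells, 0.256% of XN1 cells and 2.20% of CN4 cells. Bst2, which tethers budding virions, was captured in 7.66% of XN4 and 4.94% of XN1 cells. The guanylate-binding proteins Gbp2 and Gbp3 reached 6.32% and 8.17% of XN4 cells, and the exonuclease Isg20 2.60%. By level, XN4 was 1.75-fold above XN1 for Gbp2 (1.47 to 2.09) and 1.66-fold for Gbp3 (1.44 to 1.92). Isg20 was not separated between XN4 and KN1, at 1.02-fold (0.808 to 1.29).

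**Figure D2:**
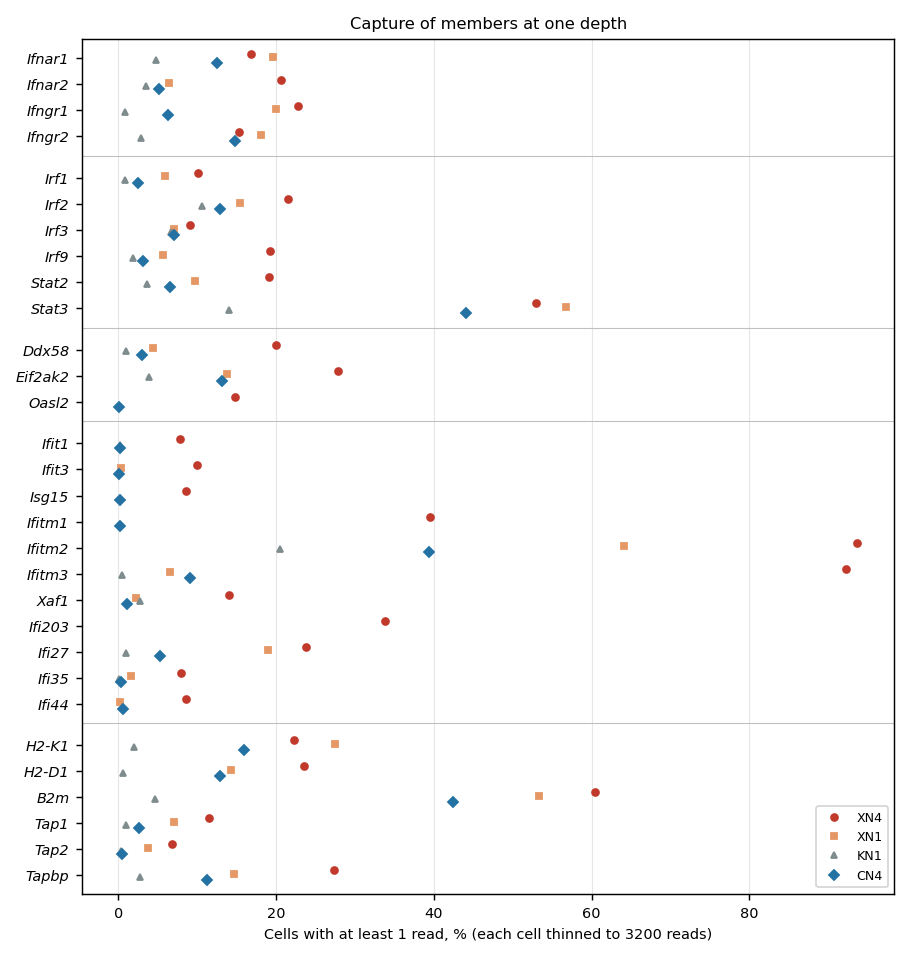
Share of cells with at least 1 read of each member captured in at least 10% of cells of a line, after every cell was thinned to 3200 reads and shallower cells were left out (543 in XN4, 776 in XN1, 290 in CN4 and 579 in KN1). Ifitm2 and Ifitm3 remain above 92% in XN4, and the Ifnar1, Ifngr2, Stat3 and H2-K1 shares are higher in XN1 than in XN4 at this depth.

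Capture depends on depth, so shares were also taken at 3200 reads a cell. At full depth 30 members were captured in at least 10% of XN4 cells, 15 of XN1, 3 of KN1 and 14 of CN4 cells. Of all 17419 genes, 46.3% reached this limit in XN4, 39.6% in XN1, 44.6% in CN4 and 16.3% in KN1. After thinning the members numbered 24 in XN4, 12 in XN1, 10 in CN4 and 3 in KN1, and the shares of all genes were 30.1%, 31.9%, 32.6% and 13.2%. Genes of all kinds were thus captured less often in KN1. For Ifnar1 the share was 32.6% in XN4 and 27.7% in XN1 at full depth, and 16.8% and 19.6% after thinning, so the order of these lines turned with depth. Ifitm3 kept 92.2% of XN4 cells and 6.55% of XN1 cells.

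Of the 6 antigen presentation genes listed in all lines, 5 were highest in XN4 and 2 by at least 2-fold. Of all genes, 25.9% were highest in XN4 and 5.64% by at least 2-fold. B2m, the light chain common to class I molecules, had 5.08 reads per 10000 in XN4 (5.01 to 5.15), 3.21 in XN1 (3.13 to 3.29), 2.43 in CN4 (2.37 to 2.49) and 0.407 in KN1 (0.384 to 0.432). It was captured in 74.9%, 60.4%, 58.1% and 6.01% of the cells of these lines. XN4, XN1 and CN4 lay within 2.09-fold of each other, and KN1 lay well below them.

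The class I heavy chains differed from each other in order. H2-K1 had 1.18 reads per 10000 in XN4 (1.15 to 1.21), 1.204 in XN1 (1.155 to 1.254), 0.695 in CN4 and 0.158 in KN1, so XN4 and XN1 were not separated beyond counting error. H2-D1 had 1.302 in XN4, 0.612 in XN1, 0.574 in CN4 and 0.0504 in KN1, with XN4 2.13-fold above XN1 (2.00 to 2.27). The heavy chain genes are close in sequence, and reads that fit both could have been divided between them.

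Peptide loading genes were graded in the order XN4, XN1 and CN4. Tap1, a transporter subunit, had 0.510 reads per 10000 in XN4, 0.263 in XN1, 0.1002 in CN4 and 0.0849 in KN1, and its partner Tap2 had 0.255, 0.1297, 0.0257 and 0.0210. Tapbp, or tapasin, which bridges the transporter to the heavy chain, had 1.39, 0.534, 0.391 and 0.234. The immunoproteasome subunits followed the same order at lower capture: Psmb8 was captured in 9.12% of XN4, 3.02% of XN1 and 0.609% of CN4 cells, and Psmb9 in 5.50%, 1.28% and 0.377%. Neither was listed in KN1. Cd274, which encodes the checkpoint ligand PD-L1, was captured in 0.433% of XN4, 0.384% of XN1 and 0.377% of CN4 cells, close to the limit of detection.

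KN1 can be read against its neighbours only with its low complexity in view. XN1 was at least 2-fold above KN1 for 17 of 29 members, against 21.6% of all genes, and KN1 above XN1 for 3, Irf2, Irf3 and Xaf1, against 25.9%. CN4 was above KN1 for 9 of 30 members, against 19.8% of all genes, and KN1 above CN4 for 4, against 24.2%. All 6 antigen presentation genes compared over the 4 lines were lowest in KN1. Genes of other functions were also often lowest there, 34.9% of all genes being so, and the part of the lower gene number in this was not tested.

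XN1 and CN4, which had similar gene numbers, were also compared. XN1 was at least 2-fold above CN4 for 14 of 35 members, against 9.94% of all genes, and the 14 included Ifngr1, Irf1, Ifih1, Ifit3, Bst2, Gbp2, Gbp3, Ifi27, Tap1, Tap2, Psmb8 and Psmb9. CN4 was above XN1 for 3, Ifit2, Usp18 and Ifi44, against 8.26% of all genes. In the tables of all reads Ifi44 fell below the 2-fold limit, at 1.90 (CN4 over XN1), as did Ifih1 at 1.48 and Ifit3 at 1.29 (XN1 over CN4). Without XN4, 9 of 29 members were at least 2-fold highest in XN1, beside 4.58% of all genes. Of the 14 higher in XN1, 4 were antigen presentation genes and 1 was a receptor.

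The next question was whether the effectors were spread evenly over XN4 cells or concentrated in some. A core list of 16 genes (Ifit1, Ifit2, Ifit3, Isg15, Rsad2, Usp18, Oasl2, Oas1a, Irf7, Ifi44, Xaf1, Zbp1, Ddx58, Ifih1, Stat2 and Bst2) was scored in each cell, of which 15 were listed in XN4. The number expected was taken from independent capture of each gene within 20 groups of cells of like read depth. In XN4, 2011 cells held at least 2 core genes where 2346 were expected, a ratio of 0.857 (0.820 to 0.895), and 950 cells held none where 647 were expected. At the other end, 351 cells (8.94%) held at least 6 where 160 were expected, a ratio of 2.19 (1.97 to 2.43), and 151 held at least 8 where 12.6 were expected. The ratio at 6 or more was 5.71 with 2 reads required for capture and 32.5 after thinning, where 50 cells stood against 1.54 expected. Core genes were thus gathered in fewer cells than independent capture gave, with excess at none and at many. The limit of 6 was set after the values were seen.

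**Figure D3:**
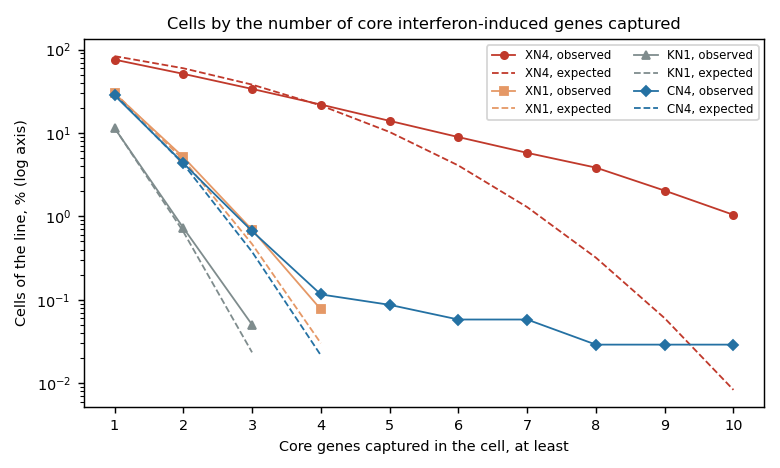
Share of cells (log axis) with at least the given number of core genes captured, as observed (solid, markers) and under independent capture within groups of like depth (dashed). The XN4 curves cross near 4 genes, with 8.94% of cells observed at 6 or more, while XN1, KN1 and CN4 lie more than 10-fold below XN4 from 3 genes on.

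The other lines rarely reached several core genes. At least 3 were captured in 0.691% of XN1, 0.0503% of KN1 and 0.667% of CN4 cells, against 33.8% of XN4 cells. The core genes listed, and so scored, were 15 in XN4, 13 in CN4, 11 in XN1 and 8 in KN1. When every cell of the 3 tables of reads per cell was used, with 15 core genes in XN1 and 16 in XN4 and CN4, the shares were 35.0% in XN4, 0.796% in XN1 and 1.18% in CN4. Set against independent capture, the ratio at 3 or more was 0.887 (0.840 to 0.937) in XN4, 1.48 (0.977 to 2.16) in XN1 and 1.77 (1.123 to 2.66) in CN4. With every cell it was 0.881, 1.37 and 1.53, so at this limit XN4 had fewer such cells than independent capture gave and CN4 more. The mean number of core genes a cell was 2.19 in XN4, 0.357 in XN1 and 0.337 in CN4. A limit of 3 thus lay nearer the mean in XN4, and these ratios do not rank the lines by how far core genes were gathered. After thinning the normalized tables to 3200 reads the shares were 0.352% in XN1, 0.0589% in KN1, 0.127% in CN4 and 14.8% in XN4. CN4 held a few cells rich in core genes: 3 of 3448 cells had 5 or more, and 1 of them, with 3855 reads, had 10. Over all 18157 CN4 cells 41 had 5 or more, and these held 292 of the 342 Ifit1 reads of the line, Ifit1 being 1 of the genes that chose them. None of the 41 had a cell index also found in XN4. In XN1, 6 of 14452 cells had 5 or more, and 1 of these shared its index with XN4.

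Pairs of members showed which genes were captured in the same XN4 cells. Over the 35 members captured in 5% to 60% of XN4 cells, 57 of 595 pairs (9.58%) were found together at 1.5 times or more the number expected within depth groups, against 0.162% of 42462720 pairs of all genes in that range. Among core genes this held for 31 of 78 pairs, with a median ratio of 1.43. Ifit1 and Usp18 were found together in 104 cells where 44.9 were expected, a ratio of 2.32 (1.89 to 2.81). Ifit1 and Ifit3 were found together in 223 cells where 96.3 were expected, a ratio of 2.31 (2.02 to 2.64).

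At the same limit, 7 of 91 pairs of a core gene with a class I presentation gene were found together, and 1 of 21 pairs of class I presentation genes. Some high ratios outside the core pairs are given as examples, chosen after their values were seen. Bst2 and Gbp2 had a ratio of 2.15 (1.64 to 2.78), Gbp2 and Psmb8 of 1.95 (1.52 to 2.47), and Psmb8 and Psmb9 of 1.86 (1.40 to 2.43), while Gbp2 and Psmb9 had 1.18 (0.771 to 1.73). The class I heavy chains were near expectation, H2-K1 and H2-D1 being at 1.102 (1.03 to 1.18). Median ratios with the core genes were 1.96 for Ifit1, 1.197 for Ifi203, 1.08 for Ifitm1 and for Ifnar2, and 1.07 for H2-K1. They lay between 0.990 and 1.04 for Ifnar1, Ifngr1, Ifngr2, Irf1, Irf2 and Irf3. Ifit2 again stood apart from Ifit1 and Ifit3, at 1.104.

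**Figure D4:**
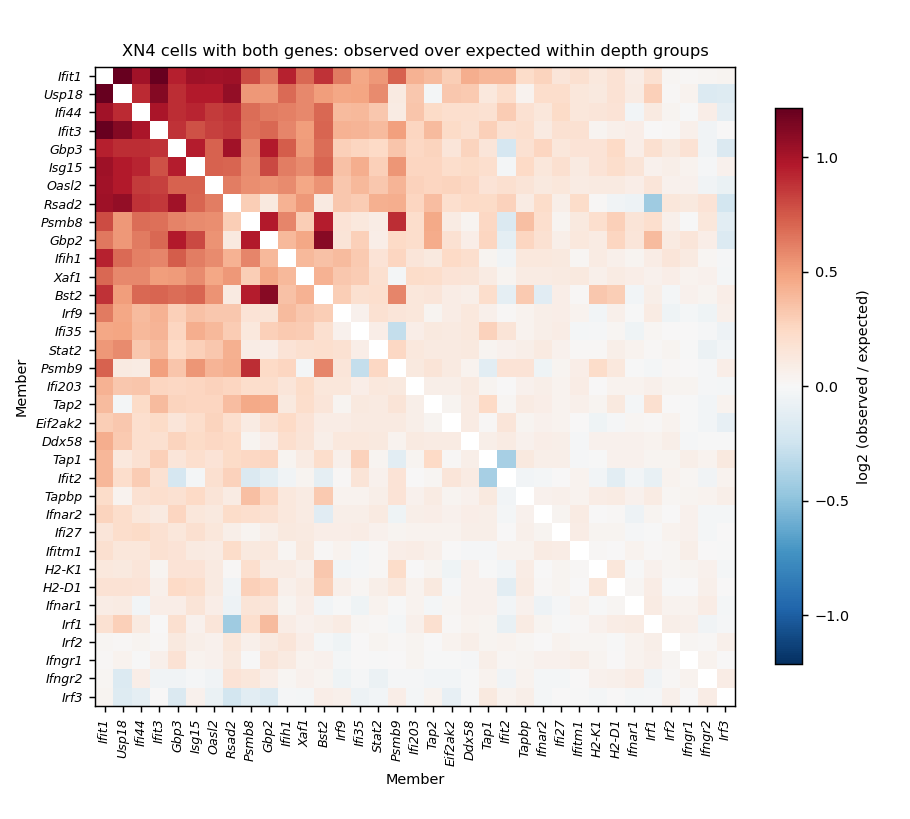
Number of XN4 cells with both genes over the number expected within depth groups, as log2, for 35 members ordered by their median ratio with the core genes. The dark block at the upper left holds Ifit1, Usp18, Ifi44, Ifit3, Gbp3, Isg15, Oasl2 and Rsad2, with ratios up to 2.32. Ifnar1, Ifngr1, Ifngr2 and Irf3 at the lower right are pale.

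Promoters are shown for 5 members to set their sequence beside these values: Ifit1, Ifit3 and Isg15 as core genes found together, Bst2 as a core gene with a high ratio to Gbp2, and B2m as the class I gene captured in most cells. The motif searched was GAAANNGAAA, the repeat at the centre of interferon-stimulated response elements, on both strands (TTTCNNTTTC on the other). Windows from 250 bases before to 50 after the RefSeq start were on hand for 41 of the 45 members (GRCm38.p6). The motif was in 17 of the 49 windows of these 41 genes (34.7%), each in a different gene, and in 3.44% of all 32851 windows. By role it was found in 10 of 16 effectors, 4 of 6 sensors, 2 of 7 transcription factors, 1 of 8 antigen presentation genes and 0 of 4 receptors. A match is a description of the letters and no evidence of binding. Each stretch runs from base -200 to base -31 before the start, 5′ to 3′ on the strand of the gene, with motif matches in capitals. In the table of windows, Ifit1 lies at chr19:34640689-34640858 (plus strand), Ifit3 lies at chr19:34583329-34583498 (plus strand), Isg15 lies at chr4:156200849-156201018 (minus strand), Bst2 lies at chr8:71537503-71537672 (minus strand) and B2m lies at chr2:122147487-122147656 (plus strand).
Ifit1: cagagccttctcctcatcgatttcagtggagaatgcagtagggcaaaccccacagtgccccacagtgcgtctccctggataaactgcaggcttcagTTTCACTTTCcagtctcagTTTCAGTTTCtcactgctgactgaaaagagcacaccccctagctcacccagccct
Ifit3: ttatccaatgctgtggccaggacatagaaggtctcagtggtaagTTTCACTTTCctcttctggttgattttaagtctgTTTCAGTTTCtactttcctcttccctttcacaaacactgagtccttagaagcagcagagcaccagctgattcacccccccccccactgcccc
Isg15: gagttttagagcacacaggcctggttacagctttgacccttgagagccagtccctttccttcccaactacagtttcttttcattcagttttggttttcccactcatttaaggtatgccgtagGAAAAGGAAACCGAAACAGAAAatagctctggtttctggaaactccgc
Bst2: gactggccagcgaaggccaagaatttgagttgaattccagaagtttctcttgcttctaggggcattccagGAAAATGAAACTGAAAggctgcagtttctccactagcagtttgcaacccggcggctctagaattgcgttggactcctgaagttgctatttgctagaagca
B2m: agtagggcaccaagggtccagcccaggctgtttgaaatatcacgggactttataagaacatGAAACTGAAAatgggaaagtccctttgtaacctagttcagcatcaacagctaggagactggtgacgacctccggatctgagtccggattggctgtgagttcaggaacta

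Ifit1 and Ifit3 each carry the motif 2 times in this stretch and share the decamer TTTCACTTTC and the decamer TTTCAGTTTC. Isg15 carries 3 overlapping matches and Bst2 2 overlapping matches. In Ifitm3 the matches began at bases 3 and 20, counted from 1 at the start, and are not printed. No match was found in the windows of Ifitm1, Oasl2, Ifi44, H2-K1, H2-D1, Tap1, Psmb8 or Psmb9, several of which differed widely between lines. The shorter motif TTCNNNGAA, of the kind bound by STAT dimers, was in 12 of the 49 windows (24.5%) and in 8.30% of all windows.

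Members were also compared between dividing cells, those with a read of Mki67 or Top2a, and other cells of the same line. In XN4, 38 of 42 members had a lower level in the 1471 dividing cells than in the 2456 others, against 56.5% of all genes, and the median ratio was 0.7999 over members and 0.960 over all genes. Bst2 had a ratio of 0.480 (0.408 to 0.562), Ifitm1 of 0.575 (0.554 to 0.597) and Oasl2 of 0.587 (0.545 to 0.633). H2-K1 at 0.949 (0.897 to 1.00) and Eif2ak2 at 1.02 (0.970 to 1.07) differed little. The members as a group were therefore lower in dividing XN4 cells by a modest amount. Dividing cells were also deeper, with a median of 11891 reads against 6123, and the part of depth in this was not tested.

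Ifit2 was higher in the dividing cells of each line, with ratios of 1.45 (1.23 to 1.71) in XN4, 2.91 (1.81 to 4.79) in XN1, 1.77 (1.27 to 2.52) in CN4 and 1.43 (1.03 to 2.02) in KN1. In XN1, 26 of 32 members were lower in dividing cells, against 50.6% of all genes, with a median ratio of 0.890. In KN1 14 of 27 were lower, against 48.1%, and in CN4 19 of 29, against 57.8%. The median ratio was 0.964 in KN1, beside 1.01 over all genes, and 0.870 in CN4, beside 0.960. The KN1 values depended on the definition: with reads of both Mki67 and Top2a required, 19 of 27 members were lower, against 54.7% of all genes, and the median ratio was 0.840, beside 0.970 over all genes.

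**Figure D5:**
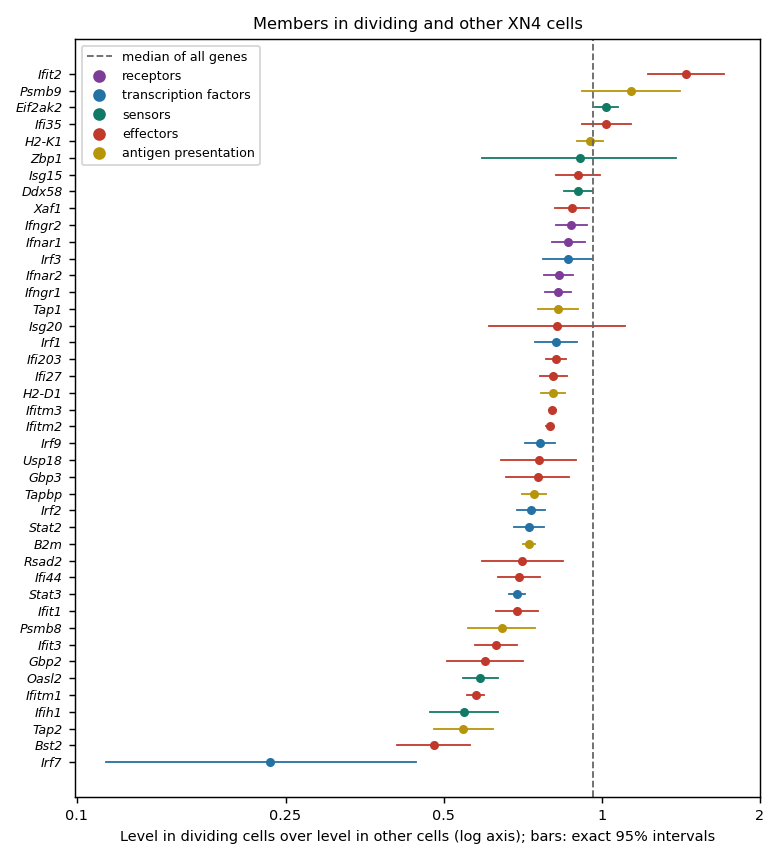
Level of each member in dividing XN4 cells over its level in other XN4 cells (log axis), with exact 95% intervals and colours by role. The dashed line marks the median of all genes at 0.960, 38 of the 42 members lie to its left, and Ifit2 lies farthest to the right at 1.45.

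Genes of the pathway outside the list were counted from a list of 43. None of the 10 interferon ligand genes looked up was listed in a normalized table, and the tables of all reads held 1 read of Ifng in XN4 and 1 in CN4. Of the 25 other pathway genes listed in all lines, 6 were at least 2-fold highest in XN4, beside the 5.64% of all genes: the kinase Jak1, the receptor chain Il10rb, the kinase Ikbke, the helicase relative Dhx58, the proteasome subunit Psmb10 and the class I gene H2-T23. XN4 was at least 2-fold above XN1 for 9 of the 26 genes compared between them, and XN1 above XN4 for 5, beside 16.8% and 14% of all genes. The 8 sensing genes of this list were divided, 3 being at least 2-fold higher in XN4 and 3 in XN1. Mb21d1 had 0.217 reads per 10000 in XN4 and 0.0950 in XN1, Ikbke 0.229 and 0.00519, and Dhx58 0.0592 and 0.00986. Tmem173, which encodes the adaptor STING, had 0.258 reads per 10000 in XN4 and 0.870 in XN1, the RIG-I adaptor Mavs had 0.0912 and 0.233, and the RNA receptor Tlr3 had 0.0614 and 0.286. The constitutive proteasome genes Psmb5, Psmb6 and Psmb7 varied by less than 2-fold, and the highest share of cells with any of the 5 class II genes was 1.90%.

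Markers of immune cells were scarce in all libraries. Of 9 macrophage or microglia markers, 4 were listed in XN4: Cd68 at 4.05% of cells, Aif1 at 0.993%, Fcer1g at 0.688% and Ptprc at 0.280%. Csf1r, C1qa and Tyrobp were not listed. In KN1, Cd68 was at 2.31%, Ptprc at 0.377% and Fcer1g at 0.352%, and in XN1 and CN4 Cd68 was at 0.845% and 1.33%. Over all cells, Aif1 was captured in 0.858% of XN4, 0.0208% of XN1 and 0.0275% of CN4 cells. Fcer1g was captured in 0.686%, 0.104% and 0.0881% in the same order. Of 5 lymphocyte markers, 1 was listed in XN4, Cd79a, at 0.204% of cells. The part of immune cells in the XN4 values was not tested. The summed level of the 6 fibroblast markers was 75.5 reads per 10000 in XN4, 1.123 in XN1, 0.970 in CN4 and 0.0247 in KN1. Of the 6, 4 were listed in XN1 and 2 in KN1, so the sums do not cover the same genes. Col3a1 made up 54.7 of the XN4 sum and was not listed in XN1. The part of these markers in the XN4 values of the effectors was not tested.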

How the data were processed

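Single-cell RNA was measured in 1 BD Rhapsody whole-transcriptome library per line. The authors aligned reads to GRCm38 with the BD Rhapsody pipeline (version 1.12.1, GENCODE M19, intronic reads counted) and deposited reads per cell as counts for XN4, XN1 and CN4. These are counts of reads, not of molecules. After removing ribosomal protein and mitochondrial genes from a random draw of cells, the authors deposited normalized values on a natural log scale, made with Seurat (4.3.0 in the submitters' processing notes). Whether counting used strand is not given in the sources used here, so overlapping genes (Tap1 with Psmb9, B2m with Patl2, Irf3 with Bcl2l12) are uncertain. Other members overlap a gene on the same strand: Ifnar2 with Gm21970, Irf9 with Rnf31, Tapbp with Zbtb22 and Ifitm2 with Gm45717. Their reads are uncertain as to gene whether or not strand was used.

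Normalized values were returned to whole reads (100% whole within 0.01), and all member values equalled the deposited reads in XN4, XN1 and CN4. KN1 reads per cell were not used here. One further gene of the pathway is not reported here and enters no count. Levels have exact Poisson intervals, which take reads as independent counts, and shares exact Clopper-Pearson intervals. Both are for counting error only, and those of levels and folds can be too narrow because reads are not molecules. Folds were read for genes with at least 20 reads in a compared line, and dividing ratios for genes with at least 40. No test was made, having 1 library per line. Cells were not filtered further and no doublet caller was run. Members, lists and call rules were chosen with earlier results of these data known. Every member was given a value in each line if captured in 10% of cells of some line or 2-fold highest in one. Alternatives covered the total, the cells, fold, read minimum, capture limit, thinning, depth groups and the definition of dividing cells. The scripts were tested on simulated data and used Python with numpy, scipy and pandas.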

Additional observations from a re-analysis of the deposited data

How the results depend on the processing

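Values per gene are listed for 152 combinations of member and line. For the levels, 15 moved past their counting interval without the 5% of cells with the most reads and 43 when cells were averaged with equal weight, and the highest line was the same for all 29 members under both. In the tables of all cells 27 of 121 levels moved, and with ribosomal protein and mitochondrial reads in the total 96 did. The highest of XN4, XN1 and CN4 stayed for 36 and 35 of 36 members. The number of members at least 2-fold higher in XN4 than in XN1 fell from 20 to 12 at a fold of 3, and XN1 over XN4 rose from 1 to 2 at 1.5. For KN1 over XN1 it was 0 at a fold of 3 and 5 with genes not listed at 3 reads. For CN4 over KN1 it was 15 at 1.5, 5 at 3 and 14 with genes not listed at 3 reads, and for KN1 over CN4 1 at 3. For CN4 over XN1 it was 1 at a fold of 3 and 5 with genes not listed at 3 reads. No share of all genes is given beside these pairwise counts at the changed settings, so they show only how far each count moved. Those with genes not listed at 3 reads also take in members listed in only 1 line of the pair. Members 2-fold highest in XN4 numbered 25 of 44 with genes not listed at 3 reads (11.4% of all genes) and 27 of 44 in the tables of all reads of XN4, XN1 and CN4 (17.6% of all genes), counts that also take in members absent from another line's normalized table; without XN4 they numbered 9 of 29 in XN1 (4.58% of all genes) and 3 in KN1 (18.0% of all genes). These last 4 counts come from alternatives chosen after seeing the data. The 27 include Isg20, which was not separated between XN4 and KN1 in the normalized tables. Requiring 2 reads for capture left 4 members at 10% of cells in XN1 and 4 in CN4, from 15 and 14 at 1 read. No share of all genes is given at 2 reads. The ratio for at least 3 core genes in XN4 was 0.971 with 2 reads, and that for at least 6, also chosen after seeing the data, was 5.71 with 2 reads and 32.5 after thinning to 3200 reads, where fewer cells reach 6. With both Mki67 and Top2a required, the median member ratio in KN1 was 0.840. The cause of these shifts was not tested. No paired analysis was possible because the result comes from no test and each line has 1 library. Depth limits rare members most: reads in 1 library show counting error, not the spread between cultures.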

Other observations

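Within XN4, members outside the core list were also set beside the number of core genes in a cell. B2m had 3.82 reads per 10000 in the 950 cells with no core gene, 4.69 in the 2626 cells with 1 to 5 and 7.86 in the 351 cells with 6 or more. Ifi203 had 1.19, 1.69 and 3.85 in these classes, Ifitm3 12.7, 15.1 and 24.1, H2-K1 0.804, 1.13 and 1.73, and Irf9 0.550, 0.767 and 1.48. Spans were smaller for Ifitm1, at 2.63, 2.65 and 4.07, and genes outside the list also had higher levels across the classes, the intermediate filament gene Vim from 10.1 to 13.3 and 15.8 and the fibroblast-associated gene Col3a1 from 46.3 to 55.2 and 59.9. Mki67 had 2.07, 3.17 and 2.42, and the immune marker Ptprc 0, 0.00239 and 0.00602. The classes differed in depth, with medians of 4394, 8683 and 18314 reads a cell, and were formed from the same cells, so these values are a description.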
